A study of Mus musculus with 24 samples.

Results

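Metabotropic glutamate receptors are G protein-coupled receptors that turn released glutamate into slow changes of excitability and transmitter release. Of this family, the 6 genes Grm2, Grm3, Grm4, Grm5, Grm7 and Grm8 were followed here by their symbols in the feature list, and all 6 were among the 54235 features counted. Grm5 encodes a group I receptor, which couples to Gq and phospholipase C and sits mostly at the edge of the postsynaptic density. Grm2 and Grm3 encode the group II receptors and Grm4, Grm7 and Grm8 group III receptors; both groups couple to Gi and Go, lower cyclic AMP and are best known as presynaptic brakes on transmitter release, and Grm3 is also the main metabotropic glutamate receptor of mature astrocytes. In the striatum, mGlu5 of the spiny projection neurons (SPNs) is needed for endocannabinoid-dependent plasticity.

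The cells came from mice in which activity-dependent Cre recombination labels neurons with tdTomato (the Ai9 reporter allele). Primary motor cortex was taken from Fos-CreER::Ai9 mice and dorsal striatum from Arc-CreER::Ai9 mice, so region and driver line cannot be told apart. Trained mice learned a forelimb reaching task for 2 days (early) or 8 days (late) before 4-hydroxytamoxifen; control mice received 4-hydroxytamoxifen without training, and tissue was collected 3 days after labelling in all groups. Each region had 2 pools of 2 mice per stage, each sequenced as 1 library per hemisphere, so the replicate below is the pool (6 per region), numbered in accession order within its stage.

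In all, 24 libraries were made with droplet 3′ chemistry, of which 23 had counts here; the right hemisphere of striatal control pool 1 was not analysed here. The 23 libraries held from 5.26e+06 to 3.05e+07 UMIs (unique molecular identifiers, 1 per captured transcript) and from 467 to 6685 cells after filtering, with median UMIs per cell from 1978.5 to 5588.5. The labels name 2 kit versions without assigning them. Barcode sharing put the libraries of pool 1 of the control and late groups of both regions into one class, kit class A, and the rest into kit class B: pairs of libraries shared 1.34 barcodes per 1e+06 possible pairs within A, 0.263 within B and 0.0236 between them, and at most 148 barcodes in one pair. Kit class was a covariate in the stage and region fits.

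Clusters were named from marker genes, and each name below stands for cells alike to that type by its markers (Lamp5-like, D1 SPN-like and so on); no receptor gene was used for clustering. Of 48412 cortical cells kept, 44316 had a type name, and of 51215 striatal cells, 46977 had one. A level is the gene's UMIs per 1e+06 UMIs (CPM) of one cell type in one pool, given as mean ± SD over pools with at least 20 cells. These 3′ counts are per molecule and are not divided by gene length, but capture can differ between genes, so an order of genes within a cell type is an order of counts. In all, 42 named types had at least 2 pools, 23 in motor cortex and 19 in striatum.

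**Figure D1:**
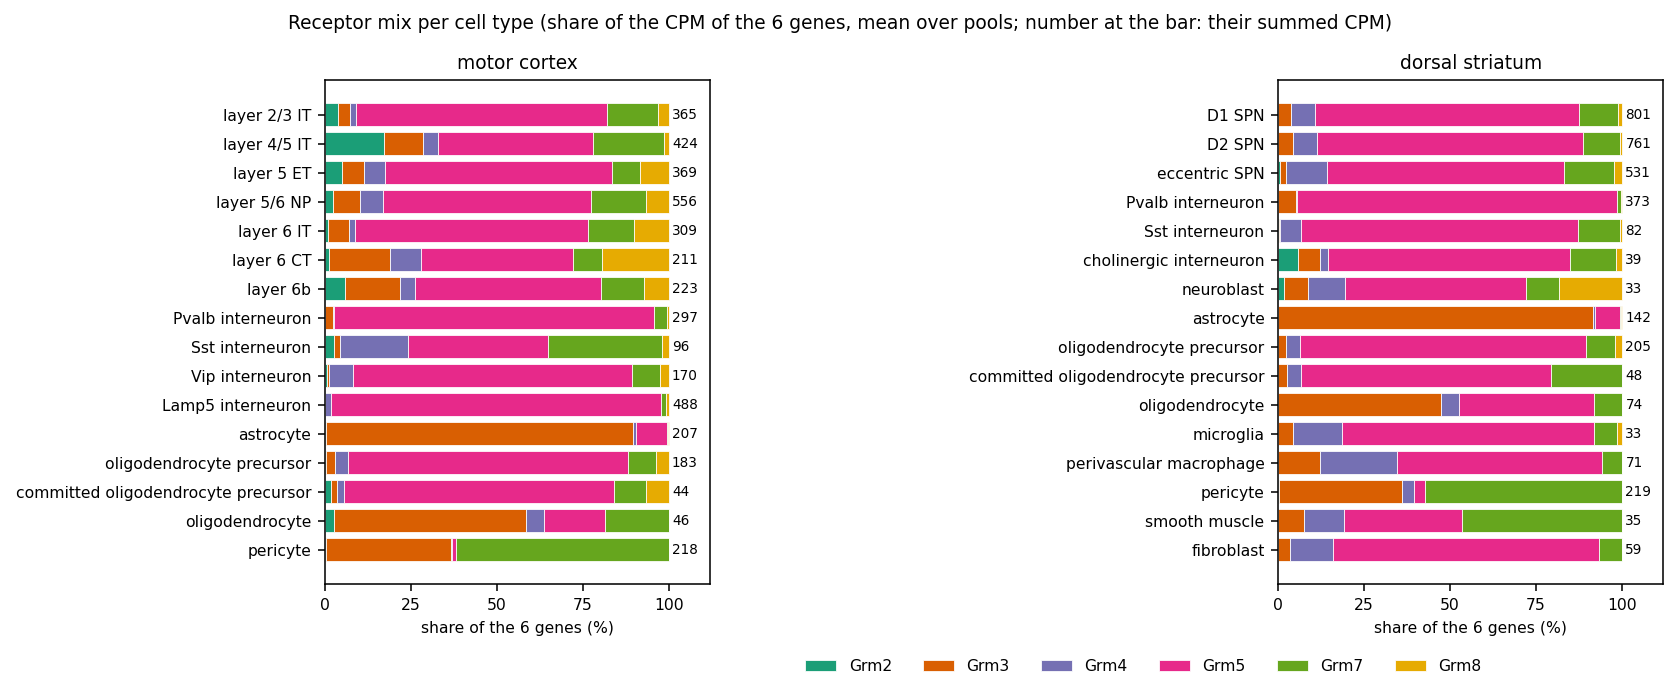
Share of each of the 6 receptor genes in their summed CPM, by named cell type of motor cortex and striatum (horizontal axis, percent; mean over pools; types with very low sums left out), with the summed CPM printed at each bar. Grm5 fills most of the bar in nearly all neurons, Grm3 in astrocytes, and Grm7 with Grm3 in pericytes.

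Grm5 was the receptor gene with the most UMIs in most cell types. In 29 of the 42 types the 6 genes together had at least 100 UMIs, and Grm5 held the largest share in 25 of these, Grm3 in 2 (astrocytes of both regions) and Grm7 in 2 (pericytes of both regions). The other 13 types had too few UMIs for a mix. The summed level was highest in striatal D1 SPNs at 801 ± 168 CPM (SD, n = 6) and D2 SPNs at 761 ± 157 CPM, followed by cortical layer 5/6 near-projecting (NP) neurons at 556 ± 57.6 CPM, striatal eccentric SPNs at 531 ± 33.9 CPM (n = 5) and cortical Lamp5 interneurons at 488 ± 57.6 CPM. Cortical microglia stood at the low end with 5.89 ± 2.54 CPM.

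Between neurons the mix differed more than the rank of Grm5. In Lamp5 interneurons, which include neurogliaform cells, Grm5 made up 96.0 ± 0.58% of the 6. In Pvalb interneurons, the fast-spiking basket cells, it made up 92.9 ± 2.8% in motor cortex (n = 5) and 93.2 ± 2.0% in striatum. D1 SPNs (76.8 ± 2.1%) and D2 SPNs (77.5 ± 1.6%) had nearly the same shares, with Grm7 next at 11.3 ± 1.7% and 10.7 ± 1.0% and Grm4 at 6.95 ± 0.92% and 6.98 ± 0.95%. In the cortex, layer 2/3 intratelencephalic (IT) neurons gave 73.1 ± 2.0% to Grm5 and 14.7 ± 0.48% to Grm7.

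A more even mix, with Grm5 under 50% of the 6, was found in 3 named cortical neuron types. In layer 4/5 IT neurons Grm5 held 45.2 ± 3.7%, Grm7 20.6 ± 1.3%, Grm2 17.1 ± 3.8% and Grm3 11.4 ± 1.5%. In layer 6 corticothalamic (CT) neurons Grm5 held 44.0 ± 3.8%, Grm8 19.2 ± 2.6% and Grm3 17.7 ± 2.4%. In the Sst-like cluster of motor cortex, 156 cells led by Nos1 and Crhbp of which 122 were in pools with enough cells, Grm5 held 40.8 ± 3.6%, Grm7 33.0 ± 8.9% and Grm4 19.7 ± 7.4% (n = 4 pools), from 117 UMIs in all.

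**Figure D2:**
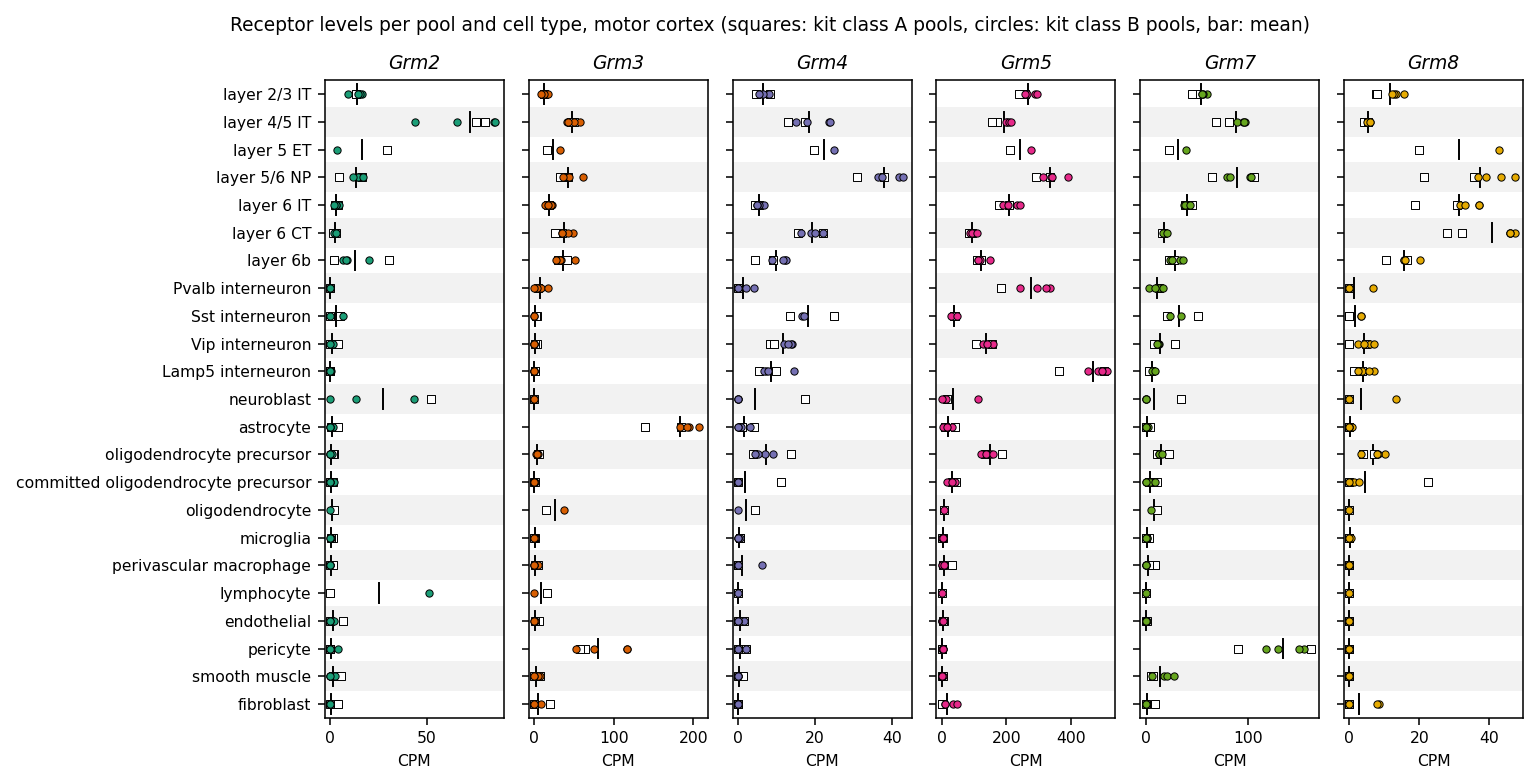
Level of each receptor gene (CPM, horizontal axis, linear and scaled for each gene) in the named cell types of motor cortex, one mark per pool (squares kit class A, circles kit class B) with a bar at the mean. Grm5 is spread over nearly all neurons and oligodendrocyte precursors, Grm2 peaks in layer 4/5 IT neurons, Grm3 in astrocytes and Grm7 in pericytes.

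The group I gene Grm5 lies on chromosome 7 of GRCm38 from 87584168 to 88134907 on the plus strand, in the GENCODE M21 annotation. In motor cortex it was highest in Lamp5 interneurons, with 503 and 512 CPM in the control pools, 452 and 485 in the early pools, and 363 and 496 in the late pools. All but late pool 1 lay between 452 and 512 CPM. Late pool 1 and control pool 1, at 363 and 503 CPM, are the class A pools, and their range overlapped that of class B. Layer 5/6 NP neurons followed at 335 ± 33.4 CPM, then Pvalb interneurons at 276 ± 63.1 CPM (n = 5) and layer 2/3 IT neurons at 267 ± 21.7 CPM. The next were layer 5 extratelencephalic neurons at 243 CPM in 2 pools, layer 6 IT neurons at 209 ± 25.5 CPM and layer 4/5 IT neurons at 192 ± 23.3 CPM.

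Among cortical neurons with a layer name, layer 6 CT neurons had the least Grm5, 92.5 ± 8.57 CPM (83.6 to 108 CPM over 6 pools), below layer 6b neurons at 120 ± 14.9 CPM (109 to 149 CPM) without overlap. The Sst-like cluster led by Nos1 and Crhbp was lower again at 39.1 ± 7.59 CPM (30.1 to 48.4 CPM, n = 4), also without overlap. The neighbours above layer 6b in the order overlapped in their pool ranges. Oligodendrocyte precursors, the dividing glia that receive synapses, had 149 ± 23.2 CPM in motor cortex, close to Vip interneurons at 138 ± 19.5 CPM, while committed precursors had 32.3 ± 10.2 CPM and astrocytes 19.4 ± 14 CPM.

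In striatum the SPNs carried the most Grm5. D1 SPNs had 500 and 689 CPM in the control pools, 771 and 704 in the early pools, and 392 and 652 in the late pools. D2 SPNs had 475 and 654 CPM in the control pools, 727 and 673 in the early pools, and 391 and 630 in the late pools. In both types the 2 class A pools, control pool 1 and late pool 1, were the lowest and did not overlap the other 4, which lay between 630 and 771 CPM. Eccentric SPNs had 366 ± 24.3 CPM (n = 5) and Pvalb interneurons 349 ± 79.3 CPM.

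Below these, striatal oligodendrocyte precursors had 173 ± 45.1 CPM, under the Pvalb interneurons and above the Sst interneurons at 66.1 ± 28.7 CPM without overlap on either side. Cholinergic interneurons, which are large and deeply sampled (median of 15109 UMIs per cell), had 27.4 ± 8.09 CPM.

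Counting cells gave the same picture with the limit of depth. At least 1 Grm5 UMI was seen in 85.1% of 8802 D1 SPNs and 82.5% of 10074 D2 SPNs, at median depths of 4561.5 and 4165 UMIs, against 1.28% of striatal endothelial cells (median 1555 UMIs) and 2.33% of striatal microglia (median 1822 UMIs). After thinning every cell to 1000 UMIs the shares were 44.5% and 43.9% in D1 and D2 SPNs, 0.641% in endothelial cells and 1.30% in microglia. In motor cortex, Lamp5 interneurons fell from 93.0% to 37.1% and layer 6 CT neurons from 46.8% to 8.68% on thinning, against 0.149% of thinned endothelial cells. The endothelial shares are given as the background of the measurement; its source was not tested.

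**Figure D3:**
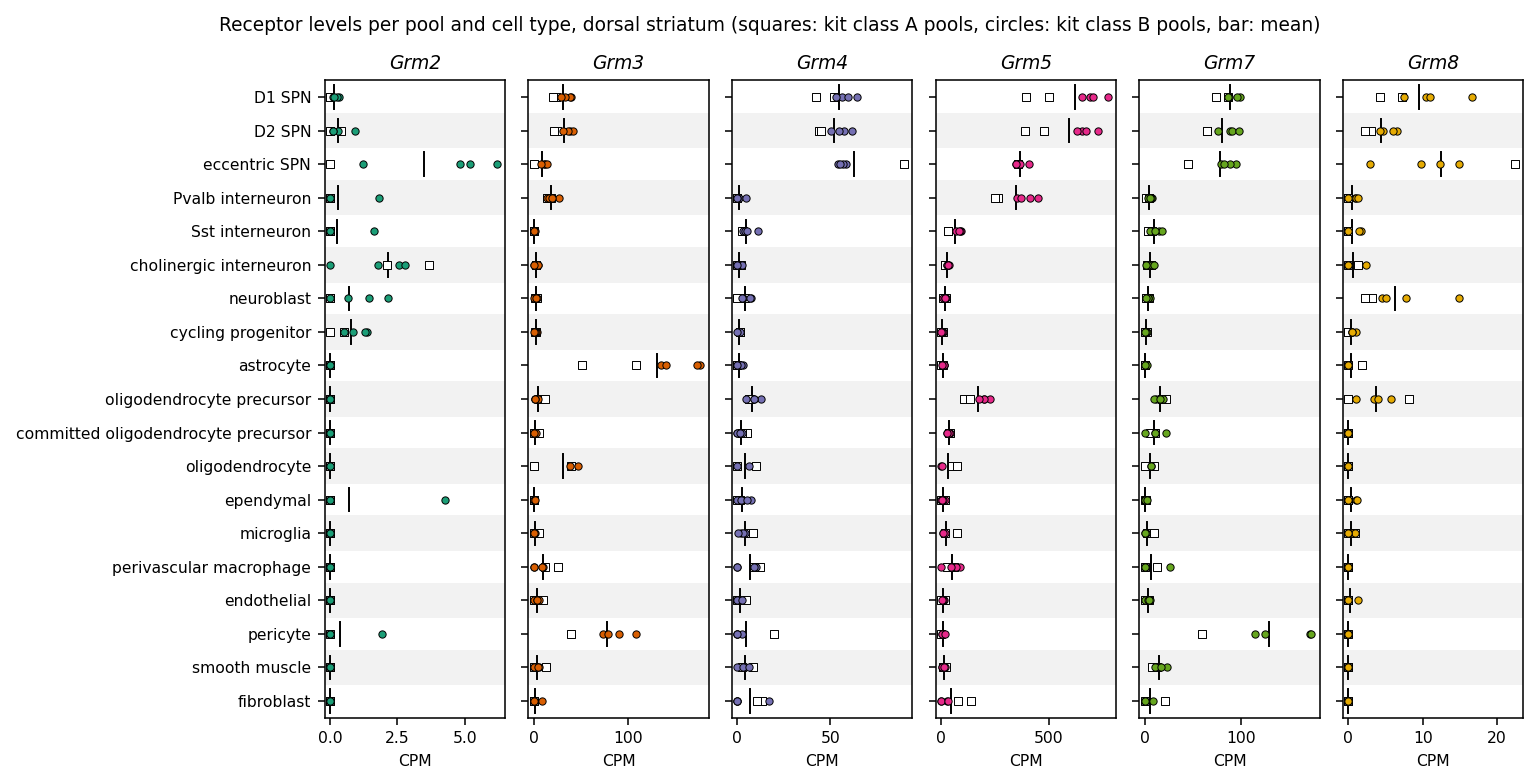
Level of each receptor gene (CPM, horizontal axis, linear and scaled for each gene) in the named cell types of dorsal striatum, one mark per pool (squares kit class A, circles kit class B) with a bar at the mean. D1, D2 and eccentric SPNs lead for Grm4 and Grm5, astrocytes for Grm3 and pericytes for Grm7, and Grm2 is at most 6.18 CPM in any pool of a named type.

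Of the group II genes, Grm2 (chromosome 9, 106643095 to 106656082, minus strand) encodes a presynaptic autoreceptor and was concentrated in layer 4/5 IT neurons of motor cortex, where it had 79.9 and 84.8 CPM in the control pools, 85.5 and 65.9 in the early pools, and 75.3 and 43.7 in the late pools. Late pool 2 was the lowest. Layer 5 extratelencephalic (16.6 CPM, 2 pools), layer 2/3 IT (13.8 ± 2.47 CPM), layer 5/6 NP (13.2 ± 4.44 CPM) and layer 6b neurons (12.8 CPM, from 2.05 to 30.4 CPM) followed, and layer 6 CT neurons had 2.66 ± 0.676 CPM. The cortical lymphocyte and neuroblast clusters had means of 25.6 and 27.2 CPM, which rest on 4 and 7 UMIs. A Grm2 UMI was seen in 34.0% of 4494 layer 4/5 IT neurons, and in 7.19% after thinning.

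Grm2 was low in the named striatal types. D1 SPNs had 8 UMIs of Grm2 among 44092296 in all (0.144 ± 0.137 CPM) and D2 SPNs 15 UMIs (0.306 ± 0.335 CPM). Astrocytes, microglia and oligodendrocyte precursors of striatum had 0. The highest value among named striatal types was 3.48 ± 2.70 CPM in eccentric SPNs (n = 5), a type with SPN markers and its own gene set including Otof and Casz1. A striatal SPN cluster of 218 cells with no subtype name had 27.2 ± 16.2 CPM of Grm2 (n = 4).

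Grm3 (chromosome 5, 9485541 to 9725170, minus strand) led in astrocytes of both regions. Cortical astrocytes had 185 and 208 CPM in the control pools, 195 and 184 in the early pools, and 139 and 192 in the late pools, and Grm3 made up 89.3 ± 7.3% of the 6. Late pool 1 stood below the other 5, which ranged from 184 to 208 CPM. Striatal astrocytes had 109 and 177 CPM in the control pools, 173 and 135 in the early pools, and 51.7 and 141 in the late pools, and again late pool 1 was lowest. Both class A pools, control pool 1 and late pool 1, lay below all class B pools (135 to 177 CPM) without overlap. In motor cortex, astrocytes were above every other type without overlap.

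Pericytes, the contractile cells of capillary walls, came second for Grm3 with 80.6 ± 29.1 CPM in motor cortex and 78.4 ± 25.7 CPM in striatum (n = 5). Neurons had less: 48.3 ± 6.0 CPM in layer 4/5 IT, 43.4 ± 10.1 CPM in layer 5/6 NP, 37.6 ± 7.77 CPM in layer 6 CT and 36.2 ± 9.11 CPM in layer 6b neurons. Lamp5 and Vip interneurons had under 1 CPM each (0.357 and 0.95 CPM), whereas striatal Pvalb interneurons had 18.3 ± 4.92 CPM and D1 and D2 SPNs 30.9 ± 7.91 and 32.3 ± 8.01 CPM.

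The 2 striatal astrocyte clusters differed in Grm3 in every pool; the clusters were compared after their values were seen, so this is a description. The cluster of 872 cells led by Gfap, Thbs4 and Fxyd1 had 40.2 ± 18.4 CPM, and the cluster of 2100 cells led by Htra1, Slc1a2 and Aldoc had 176 ± 44.7 CPM. In control pool 1 the 2 values were 27.8 and 139 CPM, in control pool 2 they were 46.9 and 213, in early pool 1 69.7 and 217, in early pool 2 32.8 and 199, in late pool 1 17.2 and 104, and in late pool 2 46.8 and 187. The first cluster made up 17.9% to 34.1% of striatal astrocytes in 5 pools and 57.9% in late pool 1, the pool with the lowest Grm3 over all astrocytes.

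Of the group III genes, Grm4 (chromosome 17, 27422387 to 27521403, minus strand) was highest in the SPNs, with 62.6 ± 15.1 CPM in eccentric (n = 5), 54.6 ± 7.54 CPM in D1 and 52.1 ± 7.11 CPM in D2 SPNs. The eccentric value includes late pool 1 at 89.5 CPM on 4 UMIs and was 55.9 CPM without it, beside 58.4 CPM in D1 SPNs over the 4 class B pools, so no order among the 3 is given. The 3 overlapped with each other and none overlapped with the next type, oligodendrocyte precursors at 7.97 ± 2.76 CPM. In motor cortex it was highest in layer 5/6 NP neurons, at 30.8 and 41.7 CPM in the control pools, 36.4 and 37.4 in the early pools and 37.9 and 42.9 in the late pools, above layer 5 extratelencephalic neurons (22.4 CPM, 2 pools) without overlap. Layer 6 CT (19.2 ± 2.75 CPM), layer 4/5 IT (18.6 ± 4.45 CPM) and Sst neurons (18.1 ± 4.88 CPM, n = 4) came next.

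Grm7 (chromosome 6, 110645581 to 111567230, plus strand) encodes a low-affinity receptor of the presynaptic active zone, yet the named type with the highest mean was not a neuron. Cortical pericytes had 134 ± 27.2 CPM and striatal pericytes 128 ± 46.9 CPM (n = 5), where Grm7 held 61.9 ± 7.8% and 57.3 ± 7.7% of the 6. In cortical pericytes the pools had 161 and 129 CPM (control), 155 and 117 (early) and 89.8 and 150 (late). This range overlapped that of the next type, layer 5/6 NP neurons (64.7 to 105 CPM), and in striatum pericytes overlapped D1 SPNs. A Grm7 UMI was seen in 17.9% of 1555 cortical pericytes and in 11.8% after thinning, against 0.0991% and 0.0496% of endothelial cells, which were sampled at a similar depth (medians of 1384 and 1598 UMIs).

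Among named neuron types Grm7 was highest in layer 5/6 NP (89.5 ± 16.4 CPM), D1 (88.0 ± 8.84 CPM), layer 4/5 IT (87.7 ± 10.9 CPM), D2 (80.3 ± 14 CPM) and eccentric SPNs (77.7 ± 19.3 CPM). Layer 4/5 IT, layer 2/3 IT (53.6 ± 5.04 CPM) and layer 6 IT neurons (40.6 ± 3.01 CPM) followed each other in the cortical order without overlap. Of interneurons, the named Lamp5 cluster had 6.63 ± 2.10 CPM, while 2 cortical clusters with no subtype name had more than any named neuron type: 116 ± 14.8 CPM in one led by Slc18a3, Rspo1 and Chat (n = 6) and 105 ± 9.22 CPM in one led by Nov, Grpr and Vip (n = 4). Cortical microglia had 1.25 ± 1.12 CPM.

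Grm8 (chromosome 6, 27275119 to 28135178, minus strand) had its highest levels among named types in the deep cortex: 40.9 ± 8.55 CPM in layer 6 CT, 37.3 ± 8.92 CPM in layer 5/6 NP and 31.4 ± 6.72 CPM in layer 6 IT neurons, whose ranges overlapped. Layer 5 extratelencephalic neurons had 31.4 CPM in 2 pools (42.9 and 19.8 CPM). Layer 6 CT neurons had 32.1 and 46.0 CPM in the control pools, 47.4 and 46.0 in the early pools and 28.0 and 46.1 in the late pools; the 2 class A pools were the low ones. Layer 2/3 IT neurons had 11.5 ± 3.18 CPM and layer 4/5 IT neurons 5.25 ± 0.645 CPM. Among named striatal types, eccentric SPNs had 12.4 ± 7.13 CPM (n = 5), where late pool 1 is 1 UMI in 23 cells (22.4 CPM). Without that pool their mean was 9.93 CPM, beside 9.48 CPM over the 6 pools and 11.4 CPM over the 4 class B pools in D1 SPNs, so no order is given. Clusters without a subtype name reached higher Grm8 levels in both regions.

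Single neurons often carried UMIs of more than 1 member. Of layer 5/6 NP neurons 64.9% had UMIs of at least 2 of the 6 genes, of layer 4/5 IT neurons 55.6%, of D1 SPNs 50.9% and of D2 SPNs 45.3%, against 1.09% of cortical and 0.639% of striatal astrocytes. With every cell thinned to 1000 UMIs these shares were 7.96%, 5.70%, 8.44% and 8.09%, and 0.198% and 0.168% in astrocytes.

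Paired comparisons between types of the same pools were made with edgeR's quasi-likelihood test, with Benjamini-Hochberg adjustment over all genes tested and the pool as a block; genes with adjusted p below 0.05 are termed called, and values are log2 differences ± SE. As the pool is a block, the p-values are set against the spread between pools of the difference within a pool. The first comparison was between D1 and D2 SPNs, the direct and indirect pathway neurons. Of 5 members tested, 1 was called, beside 27.2% of all 15405 genes: Grm8, higher in D1 by 1.05 ± 0.12 (95% interval 0.81 to 1.28, adjusted p = 8.23e-10, higher in D1 in 6 of 6 pools). Grm8 in D1 SPNs was 7.20 and 10.4 CPM in the control pools, 16.6 and 10.9 in the early pools and 4.24 and 7.46 in the late pools. In D2 SPNs of the same pools it was 2.99, 4.64, 6.57, 6.02, 2.23 and 4.22 CPM. D2 SPNs were not uniform: Grm8 was 10.3 ± 5.41 CPM in their cluster led by Adora2a (n = 6), near the D1 mean of 9.48 CPM, and 1.75 ± 1.03 CPM in the one led by Unc5c and Htr2a (n = 4).

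The other members differed little between D1 and D2 SPNs. Grm5 differed by 0.01 ± 0.02 (interval -0.03 to 0.06, adjusted p = 0.669), Grm4 by 0.00 ± 0.04 (interval -0.08 to 0.09, adjusted p = 0.972), Grm7 by 0.06 ± 0.04 (interval -0.01 to 0.14, adjusted p = 0.245) and Grm3 by -0.11 ± 0.05 (interval -0.22 to -0.002, adjusted p = 0.132). By CPM, D1 was higher in 6 of 6 pools for Grm5, in 4 for Grm4, in 4 for Grm7 and in 1 for Grm3. Grm2 was below the filter on low counts and was not tested. Each of these 4 intervals was narrower than that of Grm8.

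**Figure D4:**
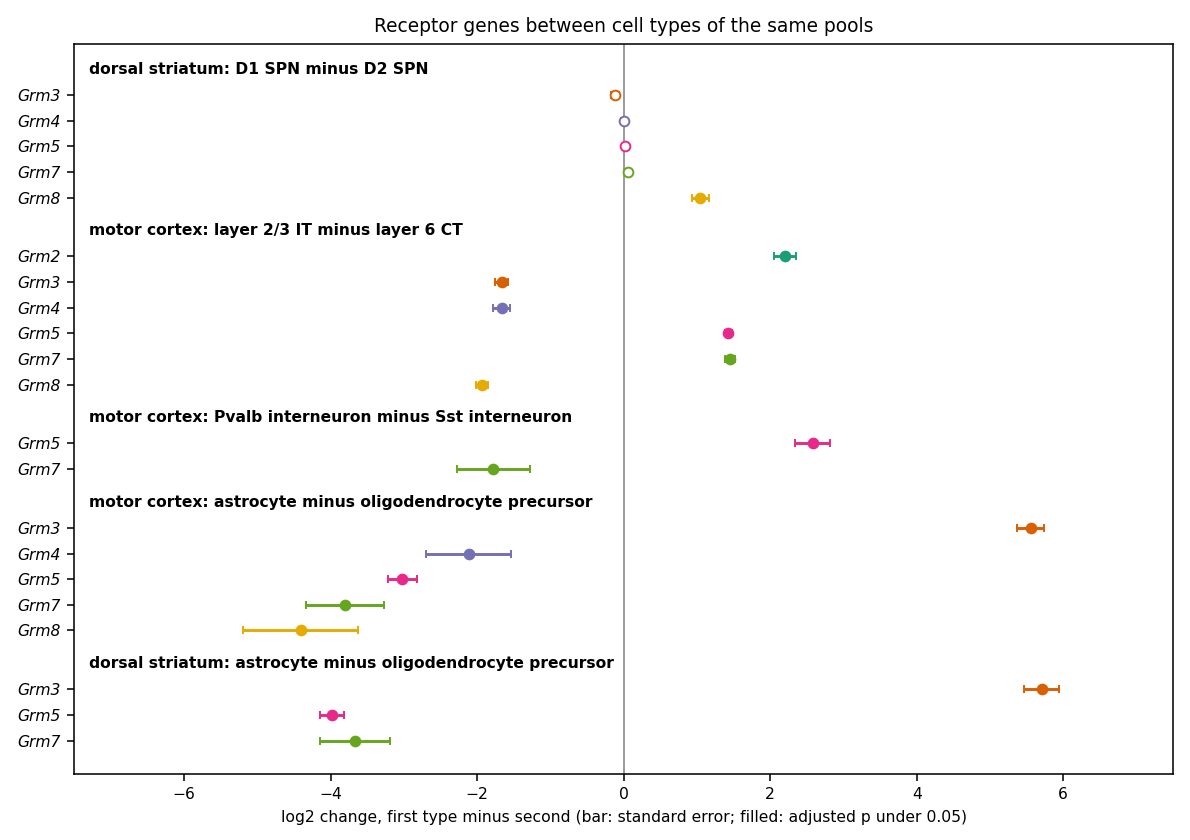
Log2 difference (horizontal axis; bar, SE) of each receptor gene tested between paired cell types of the same pools, filled where the adjusted p was under 0.05. Between D1 and D2 SPNs only Grm8 is filled, at 1.05, and between layer 2/3 IT and layer 6 CT neurons all 6 are, Grm2, Grm5 and Grm7 to one side and Grm3, Grm4 and Grm8 to the other.

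Layer 2/3 IT neurons, which project within the cortex, and layer 6 CT neurons, which project to the thalamus, differed in all 6 members tested, beside 63.3% of all 14142 genes. In layer 2/3 Grm2 was higher by 2.20 ± 0.15, Grm7 by 1.45 ± 0.07 and Grm5 by 1.43 ± 0.04, and in layer 6 CT Grm8 was higher (-1.94 ± 0.08), as were Grm3 (-1.67 ± 0.09) and Grm4 (-1.67 ± 0.11). Each direction held in 6 of 6 pools, and the largest adjusted p was 1.01e-20. Thus 1 member of group II and 1 of group III went with Grm5 and the other 3 went against it. Grm5 was 239 to 296 CPM in layer 2/3 and 83.6 to 108 CPM in layer 6 CT, and Grm8 was 7.5 to 15.7 CPM against 28.0 to 47.4 CPM, with no overlap in either case.

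Pvalb and Sst interneurons of motor cortex could be compared in 3 pools. The Sst-like cells are the small cluster led by Nos1 and Crhbp; 2286 cortical GABAergic interneurons had no subtype name and may include other Sst cells, so the comparison is of this cluster and not of Sst interneurons in general. Of the members, 2 were tested and both called, beside 32.1% of all 6251 genes. Grm5 was higher in Pvalb interneurons by 2.58 ± 0.24 (adjusted p = 1.79e-25), with 183 to 336 CPM over the 5 Pvalb pools and 30.1 to 48.4 CPM over the 4 Sst pools. Grm7 was higher in Sst interneurons (-1.78 ± 0.49, adjusted p = 0.00175, 3 of 3 pools), with 3.58 to 17.0 CPM in Pvalb and 20.8 to 51.2 CPM in Sst pools. DESeq2 gave the Grm7 difference an adjusted p of 0.189, and Grm7 rests on 22 and 41 UMIs.

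Astrocytes and oligodendrocyte precursors were opposite in their receptors in both regions. In motor cortex all 5 members tested were called, beside 62.8% of 13195 genes: Grm3 was higher in astrocytes by 5.55 ± 0.18, and Grm8 (-4.41 ± 0.79), Grm7 (-3.80 ± 0.53), Grm5 (-3.02 ± 0.19) and Grm4 (-2.11 ± 0.58) were higher in precursors, each in 6 of 6 pools (largest adjusted p = 0.00197). In striatum all 3 members tested were called, beside 62.4% of 11954 genes: Grm3 by 5.70 ± 0.24, Grm5 by -3.98 ± 0.16 and Grm7 by -3.67 ± 0.48. The astrocyte values of Grm4, Grm7 and Grm8 rest on 6, 4 and 1 UMIs in motor cortex and that of Grm7 on 5 UMIs in striatum, so the size of those differences is not well fixed.

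The other genes of the signalling pathway, a list of 37 with Homer and Shank scaffolds, Gq and Gi/Go subunits, effectors, regulators and the Elfn partners (36 in the features), were counted in the same tests. Between D1 and D2 SPNs 32 were tested, 12 were called higher in D1 and 7 higher in D2, beside 27.2% of all genes called. The Gi subunit gene Gnai1 (1.13 ± 0.04) and the protein kinase C gene Prkca (1.04 ± 0.04) were higher in D1, and Rgs2 (-0.44 ± 0.02), a regulator of G protein signalling, and the Go subunit gene Gnao1 (-0.34 ± 0.02) were higher in D2.

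Between layer 2/3 IT and layer 6 CT neurons 32 were tested, 14 called higher in layer 2/3 and 11 in layer 6 CT, beside 63.3% of all genes called. The scaffold gene Homer2, whose product binds group I receptors, was higher in layer 2/3 by 1.57 ± 0.06, Rgs7 by 1.48 ± 0.05 and Prkca by 3.03 ± 0.06, and the adenylyl cyclase gene Adcy1 (-1.46 ± 0.04) was higher in layer 6 CT. Between Pvalb and Sst interneurons 10 of 27 were higher in Pvalb, among them the IP3 receptor gene Itpr1 (2.36 ± 0.25) and the GIRK channel genes Kcnj3 (3.17 ± 0.35) and Kcnj9 (2.20 ± 0.28), and 11 were higher in Sst, among them Plcb1 (-1.24 ± 0.18), the phospholipase C that Gq activates. In that comparison 32.1% of all genes were called.

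Between astrocytes and precursors, 7 of 33 pathway genes tested in motor cortex were higher in astrocytes and 16 in precursors, beside 62.8% of all genes called. In striatum these were 7 and 17 of 32, beside 62.4% of all genes called. Elfn1 and Elfn2, whose products bind group III receptors across the synapse, were higher in precursors of both regions: Elfn2 by -5.18 ± 0.23 in motor cortex and -5.07 ± 0.18 in striatum, and Elfn1 by -7.09 ± 0.36 and -7.93 ± 0.36 with 0.116 and 0.0982 CPM left in astrocytes. Gnao1 was higher in astrocytes, by 2.40 ± 0.12 and 2.24 ± 0.09.

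Motor cortex and striatum were compared in the 8 non-neuronal types that both had in enough pools, with stage and kit class as covariates. Of 8 receptor tests 2 were called, beside 4.92% of all tests in these types. This count ranged from 1 to 7 over the alternatives, with 7 when doublets were kept, 6 at the lower clustering resolution and 1 to 5 with a pool left out. The set of tests changed with the setting. Every call gained with doublets kept or at the lower resolution was of a gene and type outside these 8 tests. At the lower resolution they included Grm4 and Grm7 in Sst interneurons. In astrocytes, where 22.4% of genes were called, Grm3 was higher in motor cortex by 0.47 ± 0.16 (interval 0.14 to 0.81, adjusted p = 0.0385), and the pool ranges overlapped (139 to 208 against 51.7 to 177 CPM). Without striatal late pool 1 the difference was 0.35 with an adjusted p of 0.124. The call was also lost without any of striatal control pools 1 and 2, early pool 2 and late pool 2, and cortical early pool 1, late pool 1 and late pool 2, over which the adjusted p ranged from 0.0537 to 0.119, and without the kit covariate (adjusted p = 0.203). With edgeR's quasi-likelihood test it was further lost with doublets kept (adjusted p = 0.0651) and without the filter on low counts (adjusted p = 0.106). The cortical mean of 184 CPM lay near the 176 ± 44.7 CPM of the larger striatal astrocyte cluster and above the 40.2 ± 18.4 CPM of the cluster led by Gfap; the part of this makeup in the result was not tested. The summed microglial markers in cortical astrocytes were 1810 CPM in control pool 1 and 64.9 to 123 CPM in the other 5 pools, and 50.6 to 111 CPM in striatal astrocytes. The 8 SPN markers summed to 252 to 636 CPM in cortical astrocytes, with Drd1 and Drd2 at 0, and to 239 to 421 CPM in striatal astrocytes. The glutamatergic markers, whose sums are given with the flagged results, were higher in cortical than in striatal astrocytes without overlap. The part of any of these lists in the result was not tested. Among the 24 pathway genes tested in astrocytes, 7 were higher in motor cortex, including Plcb1 (1.61 ± 0.18) and Rgs7 (1.11 ± 0.15), and 2 in striatum, including the striatal adenylyl cyclase gene Adcy5 (-3.53 ± 0.57).

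In microglia, where 2.40% of genes were called, Grm5 was lower in motor cortex by -3.10 ± 0.42 (interval -4.00 to -2.20, adjusted p = 6.90e-04). Striatal microglia had 19.0 and 10.1 CPM in the control pools, 14.9 and 18.3 in the early pools, and 74.9 and 9.10 in the late pools; cortical microglia had 1.10 to 4.06 CPM. The value of late pool 1 stands far above the others, and without it the difference was -2.54 with an adjusted p of 5.87e-04. All 8 SPN markers were detected in every striatal microglia pool, at 114 to 1470 CPM in sum with the highest in late pool 1, against 4.86 to 14.9 CPM in cortical microglia, where Drd2 was at 0. Adcy5 moved the same way in microglia (-5.24 ± 0.45). The direction of Grm5 was not particular to microglia. With doublets kept it was also called lower in motor cortex in endothelial cells (-1.40), perivascular macrophages (-2.18) and smooth muscle (-2.40). It was not tested in those types in the main fit. In astrocytes Grm5 was higher in motor cortex and not called, as given below. Within striatal microglia, the clusters led by Cx3cr1 and Gdf15 had 5.56 ± 3.85 and 5.21 ± 2.87 CPM of Grm5 (4 pools each), and the cluster led by C1qc, Tyrobp and Fcer1g had 185 ± 150 CPM (5 pools). The part of SPN RNA in the Grm5 value was not tested.

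In oligodendrocyte precursors none of 4 members tested was called between the regions, beside 0.773% of genes, and Grm5 differed by -0.26 ± 0.14 (interval -0.55 to 0.04, adjusted p = 0.658). In committed precursors, where 0.511% of genes were called, Grm5 was the 1 member tested and was not called (-0.25 ± 0.26, adjusted p = 0.918). The difference between astrocytes and precursors in Grm5 itself differed between the regions, by 0.99 ± 0.32 (adjusted p = 0.0301, test of the interaction, among 1595 of 13158 genes called; Grm3, Grm4 and Grm7 were also tested and not called, and 1 of all 34 interaction tests of receptors was called): astrocytes had 19.4 CPM in motor cortex and 9.09 CPM in striatum, on 80 and 57 UMIs. The direct comparison of astrocytic Grm5 between the regions was not called (0.75 ± 0.43, adjusted p = 0.235), though it was called without cortical early pool 1 (1.19, adjusted p = 0.0360).

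**Figure D5:**
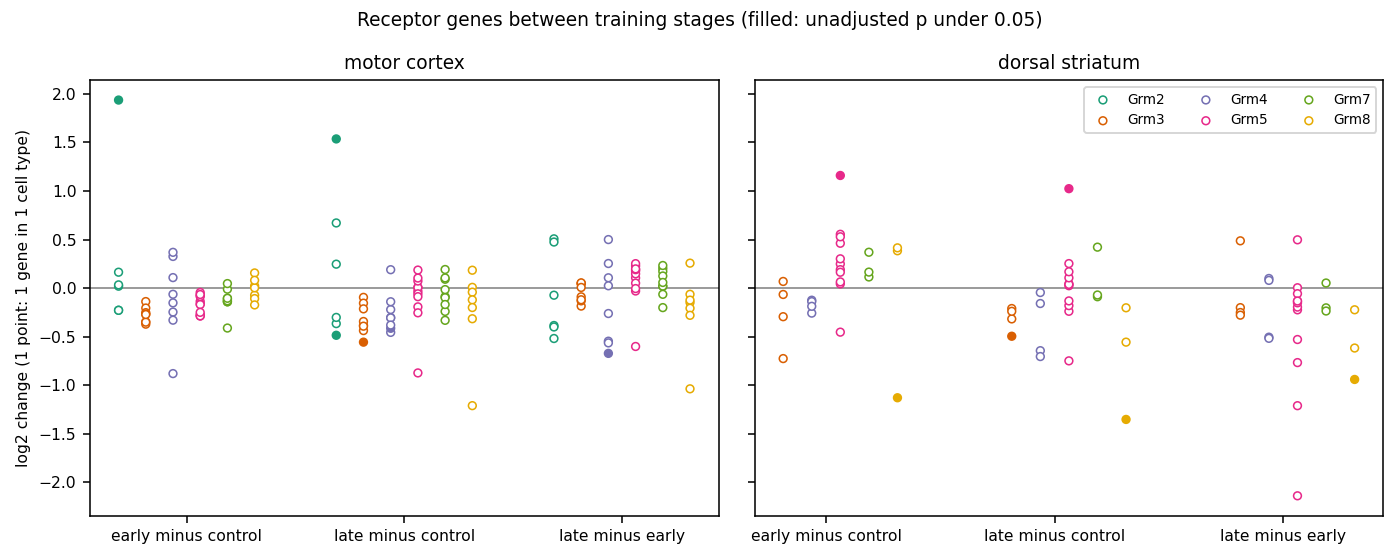
Log2 change (vertical axis) of each receptor gene between learning stages (horizontal axis: the 3 contrasts), one point per gene and cell type in motor cortex and striatum, filled where the unadjusted p was under 0.05; changes against a group at 0 are left out. No change passed the adjusted threshold, and the highest point in motor cortex is Grm2 in layer 6b neurons at 1.94.

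Learning stage was compared within each named type over the 6 pools of a region, with kit class as a covariate, which leaves 2 residual degrees of freedom. With edgeR's quasi-likelihood test none of the 49 receptor tests in 17 cortical types was called in any contrast, beside 0.0259% of all tests for early against control, 0.0518% for late against control and 0.0114% for late against early. The unadjusted p was below 0.05 in 1, 5 and 1 of them, beside 3.65%, 4.59% and 2.65% of all tests. None of the 26 tests in 16 striatal types was called, beside 0.0687%, 0.0252% and 0.0203% of all tests, and 3, 3 and 1 had an unadjusted p below 0.05, beside 5.25%, 5.64% and 6.93%. DESeq2 called 0 in each of the 6 contrasts. No pathway gene was called either, of 420 cortical and 371 striatal tests per contrast.

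The changes with an unadjusted p below 0.05 are given as values. Where a pool of the contrast is left out, its arm is 1 pool, which is assumed to vary like the other groups. Grm2 in layer 6b neurons was 2.05 and 6.76 CPM in the control pools, 20.1 and 9.0 in the early pools, and 30.4 and 8.44 in the late pools (early minus control 1.94 ± 0.60, adjusted p = 0.999, and late minus control 1.54 ± 0.56, adjusted p = 0.935, with edgeR's quasi-likelihood test). The control values rest on 2 and 16 UMIs and lay below all 4 trained pools. Without the filter on low counts, edgeR's quasi-likelihood test called both changes (1.93, adjusted p = 0.0112, and 1.54, adjusted p = 0.0370). Pools that share a batch name in the labels gave 30.4 against 2.05 CPM (late and control pool 1) and 20.1 against 6.76 CPM (early pool 1 and control pool 2). The early change was called without control pool 2 (4.73) or early pool 2 (2.32), and the late change without control pool 2 or late pool 2. In the fit without control pool 2, late pools 1 and 2 alone (30.4 and 8.44 CPM) set the kit term. The early estimate of 4.73 is therefore no direct comparison with control pool 1 and its 2 UMIs. In both of its fits the late change rests on late pool 1 against control pool 1.

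Grm2 in layer 4/5 IT neurons was lower in late than in control pools by -0.49 ± 0.22 (adjusted p = 0.980), which is carried by late pool 2 at 43.7 CPM. The pools that share a batch name, late and control pool 1, had 75.3 and 79.9 CPM. It was called without control pool 1 (-0.94, adjusted p = 3.57e-04) or late pool 1 (-0.93, adjusted p = 4.20e-04). Without either, the other is the last class A pool of these stages and the kit term takes it up, so the contrast rests on late pool 2 and control pool 2. The late minus early difference was likewise called without control pool 1, control pool 2 or late pool 1 (-0.78 in each). Grm4 in these neurons was 23.7 and 24.0 CPM in the early pools and 12.98 and 15.2 in the late pools, without overlap (late minus early -0.67 ± 0.22, adjusted p = 1.00), and 17.5 and 18.0 CPM in the control pools. In layer 6 CT neurons the late pools were below the control pools without overlap for Grm4 (15.6 and 16.4 against 22.0 and 22.1 CPM; -0.41 ± 0.17, adjusted p = 0.842), and overlapped them for Grm3 (26.9 and 35.5 against 34.9 and 49.5 CPM; -0.38 ± 0.16, adjusted p = 0.842). Grm3 in layer 5/6 NP neurons was 33.2 and 36.0 CPM in the late pools against 42.2 and 61.9 CPM in the control pools, without overlap (-0.56 ± 0.26, adjusted p = 0.956).

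In striatum, Grm8 in D1 SPNs was lower in late than in early pools by -0.94 ± 0.29 (adjusted p = 0.533 with edgeR's quasi-likelihood test): 4.24 and 7.46 CPM against 16.6 and 10.9 CPM, with the controls at 7.20 and 10.4 CPM, a range that overlaps that of the late pools. It was called with early pool 1, the highest of the 6 pools, as the early arm (-1.20, adjusted p = 0.0260). Grm3 in astrocytes was lower in late than in control pools by -0.50 ± 0.22 (adjusted p = 0.633). The pools that share a batch name, late and control pool 1, had 51.7 and 109 CPM, and late pool 1 is the one with 57.9% of its astrocytes in the Gfap cluster. Late pool 1 was also the lowest pool within each of the astrocyte clusters, at 17.2 CPM on 3 UMIs and 104 CPM on 12 UMIs. Grm8 in neuroblasts was 3.16 and 14.8 CPM in the control pools, 4.55 and 7.74 in the early pools and 2.18 and 5.03 in the late pools, with overlap (early minus control -1.13 ± 0.45, adjusted p = 0.927; late minus control -1.35 ± 0.52, adjusted p = 0.561). Grm5 in microglia, whose pool values and SPN markers are given above, differed from control by 1.16 ± 0.48 in the early pools (adjusted p = 1.00) and by 1.02 ± 0.43 in the late pools (adjusted p = 0.9754). Without control pool 2 the estimates were 2.49 and 1.75, though control pool 1 (19.0 CPM) lay above both early pools (at most 18.3 CPM). In that fit late pools 1 and 2 alone (74.9 and 9.10 CPM) set the kit term. The early estimate is therefore no direct comparison with control pool 1, and the late one rests on late pool 1. Grm5 in ependymal cells had 0 UMIs in both control pools, 19.3 and 7.17 CPM in the early pools and 17.2 and 2.71 CPM in the late pools; the control pools held 67 and 39 cells, and no fold is given. Grm5 in D1 SPNs, the largest signal of the 6, was not called in any contrast.

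Hemisphere was compared in the trained pools, contralateral against ipsilateral to the trained limb with pool as a block. None of 44 cortical tests in 16 types was called (0 at an unadjusted p below 0.05; 0.0213% of all tests were called and 4.62% had an unadjusted p below 0.05) and none of 18 striatal tests in 12 types (1 at an unadjusted p below 0.05, Grm5 in microglia; 0.0264% and 3.93% of all tests). DESeq2 called 0 in both regions.

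Neurons with at least 1 UMI of the reporter, termed positive, were compared with the other projection neurons of the same pool. Positive is not read as labelled: a reporter UMI was seen in 19.5% of cortical glutamatergic neurons and in 27.5% of cortical endothelial cells (medians of 7400 and 1598 UMIs), and in 18.9% of SPNs and 27.8% of striatal endothelial cells (medians of 4262 and 1555 UMIs). With every cell thinned to 1000 UMIs the expected shares were 4.27% and 16.7% in motor cortex and 10.3% and 16.1% in striatum. The lowest share in a glial type was in microglia, at 5.88% and 5.76%. In motor cortex there were 3472 positive and 14331 negative glutamatergic neurons. Of 6 members tested 1 was called, beside 5.46% of 16450 genes: Grm4, lower in positive neurons by -0.36 ± 0.08 (interval -0.52 to -0.20, adjusted p = 0.00363, lower in 6 of 6 pools). Grm4 in positive and negative neurons was 11.5 and 14 CPM in control pool 1, 14.2 and 15.6 in control pool 2, 12.9 and 17.0 in early pool 1, 9.77 and 16.3 in early pool 2, 9.08 and 12.4 in late pool 1 and 9.61 and 14.2 in late pool 2. The other 5 were not called. Grm3 was closest, lower in positive neurons in 6 of 6 pools (-0.14 ± 0.05, unadjusted p = 0.00802, adjusted p = 0.100 with edgeR's quasi-likelihood test), so 2 of 6 had an unadjusted p below 0.05, beside 17.8% of genes. Grm5 was at -0.03 ± 0.03 (interval -0.08 to 0.03).

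The positive and negative neurons differed in makeup and depth. Layer 5/6 NP neurons, the type with the most Grm4, were 2.79% of positive and 7.03% of negative neurons, and median UMIs per cell ranged from 6336 to 15632 over pools in positive and from 5143.5 to 11866 in negative neurons. Within types, Grm4 was 5.46 against 6.73 CPM in layer 2/3 IT, 16.1 against 19.1 in layer 4/5 IT and 16.2 against 19.8 in layer 6 CT neurons, lower in positives in 4 of 6 pools each, and 6.59 against 4.98 in layer 6 IT neurons. The call was lost with neurons thinned to 1000 UMIs (-0.30, adjusted p = 0.637) and with 2 reporter UMIs required (-0.22, adjusted p = 0.477). Of 34 pathway genes tested, 3 were higher and 4 lower in positive neurons, with Rgs2 at 0.17 and the phospholipase C genes Plcb4 and Plcb1 at -0.14 and -0.12. Of all genes, 5.46% were called.

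In striatum, 4151 positive and 17850 negative SPNs differed in none of the 5 members tested (0 at an unadjusted p under 0.05; DESeq2 called 0; 0.289% of 14546 genes were called and 7.03% had an unadjusted p below 0.05). Grm5 was 569 CPM in both (0.00 ± 0.02, interval -0.04 to 0.05). Of the pathway genes Rgs2 (0.18) and Rgs4 (0.10) were higher in positive SPNs, and none of the 31 tested was lower.

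Genes with a like pattern were sought by the Pearson correlation of mean log2(CPM + 1) over the 42 types among 16678 genes with at least 10 CPM in a type; this describes types that share libraries, and carries no test. For Grm5 the nearest were Gm44927 (0.94), Tceal6 (0.91) and Gm44846 (0.90). Gm44927 (chromosome 7, 87890749 to 87891464) and Gm44846 (88119158 to 88122400) are provisional single-exon models inside introns of Grm5 on its strand, with 32.9 ± 4.63 and 47.2 ± 21.7 CPM in D1 SPNs, so their reads cannot be told apart from unspliced Grm5 RNA. For Grm3 the nearest was likewise an intronic model, Gm42455 (0.77), then Arap2 (0.73) and Gm43237 (0.67).

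For Grm4 the nearest were Ptpn5 (0.84), which encodes the striatum-enriched phosphatase STEP, Arpp21 (0.84), a cyclic AMP-regulated phosphoprotein of SPNs, and Arg2 (0.80). For Grm7 they were Gucy1b1 (0.82), the beta subunit of the nitric oxide receptor guanylyl cyclase, which had 925 ± 233 CPM in striatal and 837 ± 255 CPM in cortical pericytes, Hecw2 (0.81) and Sh3glb2 (0.81). For Grm8 they included Tmem121b (0.87) and Tmem132a (0.85), and for Grm2 they were Gm11549 (0.81), Ovol2 (0.80), which peaked at 122 ± 22.0 CPM in layer 4/5 IT neurons, and C730002L08Rik (0.80). Among the members themselves the highest correlation was between Grm4 and Grm5 (0.76) and the lowest between Grm2 and Grm5 (0.13).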

How the data were processed

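Cells of both regions were profiled by droplet 3′ single-cell RNA sequencing. The deposited values are UMI counts per gene and cell, made by the authors with Cell Ranger 3.1.0 on GRCm38 (mm10), per the submitters' processing notes; the matrix headers name software 3.0.2. Nothing in the sources used here states filters applied before deposit, or which library used which kit version. Reads from an intron or an overlapping gene could enter a count as far as the authors' counting allowed.

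From these counts, barcodes were kept as cells if they had 500 or more genes, 1000 or more UMIs and no more than 20% of UMIs from mitochondrial genes. Doublets were scored by simulation, and 4088 were removed at 0.8% per 1000 cells. Cells were clustered per region (scanpy 1.11.5, leidenalg 0.10.2; 2000 variable genes, 40 components, 20 neighbours, resolution 1.5) without Grm, mitochondrial, sex-linked and reporter genes. Clusters were named from marker lists, with the scoring rule set after seeing the data, so names may differ from the authors'.

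UMIs were summed per pool and type (at least 20 cells). Tests used edgeR 4.0.16 in R 4.3.3 (TMM, filterByExpr, quasi-likelihood F test, Benjamini-Hochberg over all genes of a type and contrast), with standard errors from the log2 change and F. Covariates were kit class for stages, stage and kit class for regions, and pool as a block elsewhere. Alternatives were DESeq2 1.42.0, RLE factors, no low-count filter, a stricter cell filter, doublets kept, resolution 1, no kit term, 50 cells per pool, thinning and each pool left out. On simulated data for late against control in D1 SPNs (14380 genes), 70% of 2-fold and 94% of 4-fold changes were recovered, with 3.529% of calls false. The simulated counts had the same spread for all genes and no kit difference, so these rates need not hold for the real stage fits.

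The labels' batch names are shared by late and control pool 1 of each region and by early pool 1 and control pool 2 of each region; the other pools share theirs with the other region, so batch as a term of the stage fit leaves no residual degrees of freedom. Intervals for shares of cells cover counting error only. Named genes are all 6 receptors, at most 5 called pathway genes per comparison and type with the smallest adjusted p, and the 3 genes most like each receptor. The members and lists were chosen with earlier results of these data known. Some genes that this rule selects are counted but not reported here by name.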

Additional observations from a re-analysis of the deposited data

Results flagged for a closer look

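In 80 groups of 4 to 6 pools with a mean of at least 10 CPM, the highest or lowest pool was tested for its distance from the rest, and 8 groups held a far value; chance alone marks about 1 in 20 groups. In striatal late pool 1, Grm4 in eccentric SPNs was 89.5 CPM on 4 UMIs and Grm5 in microglia 74.9 CPM. In cortical late pool 1, a pool of other mice, Grm3 in astrocytes was 139 CPM and Grm8 in layer 6 IT neurons 18.9 CPM. In cortical late pool 2, Grm5 was high in layer 6 CT neurons at 108 CPM and in layer 6b neurons at 149 CPM. Grm7 in Vip interneurons was 28.9 CPM in control pool 1 on 7 UMIs. Grm5 in cortical neuroblasts was 113 CPM in early pool 2 on 4 UMIs.

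The difference in Grm5 between astrocytes and oligodendrocyte precursors differed between motor cortex and striatum by 0.99 on the log2 scale, by the test of the interaction. Astrocytic Grm5 ranged from 3.28 to 41.1 CPM over cortical pools and from 1.88 to 14 CPM over striatal pools. The glutamatergic markers summed to 33.8 to 160 CPM in cortical and 0 to 2.94 CPM in striatal astrocytes, and their part in the result was not tested.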

How the results depend on the processing

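Of the single-receptor values recomputed for the cell type, region and reporter comparisons (stage values are not in this tally), 500 kept direction and side of the threshold, 27 changed sign, 14 lost and 1 gained a call; of the counts of calls and mean levels, 299 stayed within 1.5 times the count or 1 SD between pools of the level, and 32 did not. The number of receptors called became 5 (from 3) for striatal astrocytes against precursors without the filter on low counts, 3 (from 5) for cortical ones with the stricter cell filter, and 1 (from 2) for Pvalb against Sst with DESeq2. Between regions it became 6 at resolution 1, 7 with doublets kept, 4 without the filter, 1 without the kit covariate and 1 with the stricter filter (from 2). For reporter-positive cortical neurons it became 0 when thinned and 0 at 2 reporter UMIs (from 1), and for cortical stages 1 for early and 1 for late against control without the filter (from 0). Grm4 in layer 5/6 NP neurons was 51.5 CPM with every cell thinned (37.9 CPM otherwise). Some shifts follow from which genes were tested. Grm4 and Grm8, gained for striatal astrocytes against precursors without the filter, had not been tested in the main fit. Nor had any call gained between regions with doublets kept, at resolution 1 or without the filter. The cause of the other shifts was not tested.

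Leaving out 1 pool gave 1 to 5 calls between regions (5 without cortical control pool 1, 1 without striatal control pool 1), 3 to 5 for cortical astrocytes against precursors (3 without control pool 2 or late pool 1), 1 to 2 for Pvalb against Sst (1 without late pool 1 or 2), and for stages 0 to 2 for striatal early against control (2 without control pool 2: Grm5 in microglia and cycling progenitors) and 0 to 1 for each of the other 5 contrasts. In striatum the latter calls were Grm8 in eccentric SPNs (without control pool 1) and Grm5 in microglia (without control pool 2) for late against control. For late against early the call was Grm8 in D1 SPNs (without early pool 2). It stayed at 1 for D1 against D2, 6 for layer 2/3 against layer 6 CT, 3 for striatal astrocytes, 0 for hemispheres, and 1 and 0 for the cortical and striatal reporter. Grm4 and Grm8 in cortical astrocytes against precursors and Grm7 in Pvalb against Sst were each tested in 4 of these fits. The lower counts there are of tests not made. Without cortical control pool 1 the calls gained between regions, among them Grm3 and Grm5 in Pvalb interneurons, had not been tested in the main fit.

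The 27 sign changes were of differences near 0, none called. For striatal reporter-positive SPNs, Grm4 was 0.0374 when thinned and -0.0576 to 0.0005 over left-out pools. Grm5 was -0.0013 with doublets kept, -0.0545 without the filter and -0.0056 to 0.0156 over left-out pools (-0.0021 without control pool 2, -0.0056 without late pool 1, -0.0036 without late pool 2). Grm8 was 0.0019 with RLE factors, 0.0054 with doublets kept, 0.0985 at 2 reporter UMIs, 0.0144 with the stricter filter and -0.08 to 0.0617 over left-out pools (above 0 at 0.0194, 0.0617, 0.0216 and 0.0132 without control pool 1, control pool 2, late pool 1 and late pool 2). For cortical reporter-positive neurons, Grm2 was 0.0217 with DESeq2, 0.0006 with RLE factors, 0.0178 when thinned, 0.1916 at 2 reporter UMIs, 0.0145 with the stricter filter and -0.0726 to 0.0824 over left-out pools (0.0824 without control pool 2, 0.0081 without early pool 1). Grm8 was 0.0430 when thinned, and Grm5 was -0.0373 to 0.0104 over left-out pools. Grm4 between D1 and D2 was -0.0099 to 0.0309 (-0.0069 without control pool 1, -0.0099 without late pool 2) and Grm7 between precursors of the regions -0.2986 to 0.0285 over left-out pools.

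No paired analysis was possible because the labels carry no replicate numbers; this concerns stages, while the comparisons of cell types, hemispheres and reporter status have the pool as a block. The batch names tie only late to control pool 1 and early pool 1 to control pool 2 in each region. With batch as a term, the 6 pools of a region leave no residual degrees of freedom. A stage fit of both regions together with batch as a term was not made. With 2 pools per stage and a kit term, the stage fits have 2 residual degrees of freedom of their own.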

Other observations

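Several interneuron clusters of motor cortex that no marker list named carried group III receptors at levels above those of the named interneurons; they were singled out after their values were seen, and no test was made. A cluster of 368 cells led by Slc18a3, Rspo1 and Chat had 116 ± 14.8 CPM of Grm7 (SD, n = 6) beside 219 ± 37.8 CPM of Grm5. A cluster of 276 cells led by Nov, Grpr and Vip had 105 ± 9.22 CPM of Grm7 and 45.2 ± 6.06 CPM of Grm8 (n = 4), against 14.3 and 4.07 CPM in the cluster named Vip. Grm8 was 65.0 ± 8.55 CPM in 271 cells led by Calb2 and Penk (n = 4) and 74.96 ± 21.1 CPM in 254 cells led by Igfbp5 (n = 6), above the 40.9 CPM of layer 6 CT neurons.

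In striatum, an SPN cluster with no subtype name, 218 cells led by Zeb2, Cpne4 and Nrip3, had 27.2 ± 16.2 CPM of Grm2, 94.5 ± 28.8 CPM of Grm4 and 22.9 ± 8.71 CPM of Grm8 with 0 UMIs of Grm3 (n = 4); D1 SPNs had 0.144 CPM of Grm2 and 30.9 CPM of Grm3. Eccentric SPNs held a cluster led by Pcdh8, Otof and Adarb2 with 108 ± 8.78 CPM of Grm7 and one led by Casz1 with 27.3 ± 9.13 CPM (n = 4 each). Within D2 SPNs, Grm8 was 10.3 ± 5.41 CPM in the cluster led by Adora2a and 1.75 ± 1.03 CPM in the one led by Unc5c and Htr2a. Neuroblasts led by Dcx had 13.8 ± 6.67 CPM of Grm8, and those led by Gm17750 and Igfbpl1 had 0.359 ± 0.880 CPM (n = 6 each).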
